A study of Mus musculus with 12 samples.

Results

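The genes described here drive cells through the G2 phase and mitosis: the kinases and cyclins of mitotic entry, the spindle checkpoint, kinetochores, the chromosomal passenger complex, kinesins, condensin, spindle assembly and cytokinesis. A list of 60 gene symbols defined the set, and a gene was taken where the platform annotation gave it a probe set of its own. This held for 58 of the 60, among 22151 genes tested in all, each represented by 1 probe set. Ccnb1 (cyclin B1) had no probe set listed under its symbol, and Ncapg, a condensin subunit, had only a probe set shared with Lcorl, so neither is described. Total RNA of mouse embryonic fibroblasts, cultured connective-tissue cells taken from embryos, was labelled with biotin and read on 12 Affymetrix arrays, 3 in each of 4 groups. Wild-type (WT) and Gdap1-null (KO) cells were each taken ahead of reprogramming (day 0) and on day 4 of reprogramming with OSKM, the factors Oct4, Sox2, Klf4 and cMyc. The GDAP1 protein sits in the outer membrane of mitochondria. All cells grew in DMEM with fetal serum, and the treatment text shared by all samples names transduction overnight, either mock or with OSKM, and then growth for some days, without saying which the day 0 cells had. The Gdap1 allele, the number of embryos and the passage are not given in the labels, nor whether the arrays of a group came from separate cultures, so p-values measure only the spread between these samples.

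As background, cyclin B with CDK1 starts mitosis, and its activation depends on CDC25 phosphatases, Aurora A and PLK1, against the inhibitory kinase WEE1. The anaphase promoting complex with CDC20 ends it by marking cyclins and securin for destruction once the spindle checkpoint is satisfied. Many of these genes are transcribed late in the cell cycle by FOXM1 and by B-MYB with the MuvB complex, which binds a short promoter element called the CHR, often beside CCAAT boxes bound by NF-Y. Fibroblasts put into reprogramming usually divide while they lose their fibroblast identity. In bulk RNA of this kind, fewer cells in G2 or mitosis and less of each transcript per cell cannot be told apart.

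The promoter windows of members are shown because 52 of the 58 members had their lowest group mean in the same group, KO day 4. RefSeq windows (GRCm38.p6) ran from 250 bases before to 50 bases after an annotated start of a gene, which need not be its outermost one. They were found for 46 of the 58 members. Foxm1, Ccna2, Cdc25c, Wee1, Bora, Aurkb, Incenp, Kif20a, Smc4, Cdca2, Tpx2 and Dlgap5 had none. CHR-type matches were searched as TTTGAA or TTTAAA and CCAAT boxes as CCAAT, each on both strands; TTTAAA reads the same on both, and matches of different motifs may overlap. The sequences run 5′ to 3′ along the gene's strand, with matches in capitals. The first 5 are the members with a CHR-type match and the largest KO changes by day 4 among those shown with array values. They are Cenpe (chr3:135212313-135212612, plus strand), Kif4 (chrX:100625815-100626114, plus strand), Ndc80 (chr17:71526808-71527107, minus strand), Plk1 (chr7:122159185-122159484, plus strand) and Kif23 (chr9:61946750-61947049, minus strand). The last is Cdc25b (chr2:131186698-131186997, plus strand), the member with the largest rise. Its window begins past the gene's listed start at 131186436 and so does not hold that start.
Cenpe: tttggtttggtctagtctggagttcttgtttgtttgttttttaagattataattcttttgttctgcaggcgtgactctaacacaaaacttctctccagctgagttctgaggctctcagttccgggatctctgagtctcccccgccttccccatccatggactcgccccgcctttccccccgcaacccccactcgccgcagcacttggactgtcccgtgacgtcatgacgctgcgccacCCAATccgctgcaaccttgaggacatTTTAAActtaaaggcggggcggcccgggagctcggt
Kif4: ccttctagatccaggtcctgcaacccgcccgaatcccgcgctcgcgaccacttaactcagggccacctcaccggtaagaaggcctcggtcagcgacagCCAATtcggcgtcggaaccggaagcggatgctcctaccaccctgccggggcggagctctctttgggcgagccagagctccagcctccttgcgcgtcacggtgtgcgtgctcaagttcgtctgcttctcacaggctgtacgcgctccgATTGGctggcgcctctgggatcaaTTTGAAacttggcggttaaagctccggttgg
Ndc80: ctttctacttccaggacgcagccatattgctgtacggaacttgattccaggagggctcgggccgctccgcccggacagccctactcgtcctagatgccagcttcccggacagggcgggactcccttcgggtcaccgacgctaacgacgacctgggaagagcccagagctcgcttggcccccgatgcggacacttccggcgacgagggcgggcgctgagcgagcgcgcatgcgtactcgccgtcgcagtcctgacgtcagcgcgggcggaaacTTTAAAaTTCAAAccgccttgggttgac
Plk1: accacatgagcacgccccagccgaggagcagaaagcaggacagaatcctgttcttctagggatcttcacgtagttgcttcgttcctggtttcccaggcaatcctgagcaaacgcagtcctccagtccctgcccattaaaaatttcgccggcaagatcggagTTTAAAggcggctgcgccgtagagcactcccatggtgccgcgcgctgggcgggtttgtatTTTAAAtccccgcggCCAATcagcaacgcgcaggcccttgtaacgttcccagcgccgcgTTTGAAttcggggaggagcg
Kif23: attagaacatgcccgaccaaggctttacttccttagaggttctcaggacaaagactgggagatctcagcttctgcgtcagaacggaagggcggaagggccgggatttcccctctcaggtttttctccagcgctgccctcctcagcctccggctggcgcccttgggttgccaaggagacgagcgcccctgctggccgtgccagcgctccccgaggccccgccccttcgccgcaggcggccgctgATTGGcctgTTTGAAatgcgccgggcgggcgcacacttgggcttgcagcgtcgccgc
Cdc25b: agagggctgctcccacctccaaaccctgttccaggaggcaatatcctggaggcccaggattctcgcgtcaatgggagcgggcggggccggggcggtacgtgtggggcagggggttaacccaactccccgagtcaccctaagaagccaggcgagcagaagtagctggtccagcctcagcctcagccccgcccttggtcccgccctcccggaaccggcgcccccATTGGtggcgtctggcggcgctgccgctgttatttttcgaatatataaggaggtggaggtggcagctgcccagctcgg

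In Cenpe the only CHR-type match began 14 bases after the start, in Kif4 it began 19 bases after it and in Kif23 2 bases after it. Ndc80 held 2 matches, the nearest 22 bases after the start, and no CCAAT box. Plk1 held 3, the nearest 29 bases before the start. The window shown for Cdc25b, which rose, held a CCAAT box and no CHR-type match. Nusap1, the other member that rose, held neither in its window. Since the Cdc25b window lies past the gene's listed start, the sequence around that start was not searched. Members without a match also fell, as counted below. TTTGAA stood in 34 of the 46 windows of members (73.9%), against 15.8% of the 16994 windows of tested genes. Either CHR-type motif stood between 60 bases before the start and the window's end in 31 of 46 (67.4%), against 7.43%. A CCAAT box stood in 33 of 46 (71.7%), against 38.5%, and at least 2 in 45.7%, against 12.9%. A match describes letters only and does not show binding. The members were listed by their part in G2 and mitosis, and many such genes are transcribed through these elements. The excess over all genes is therefore no result of these arrays. Of the 46 members, 36 had a CHR-type match anywhere in the window and 10 had none. Their median KO changes by day 4 were -0.54 and -0.57, and 26 and 6 fell, against 17.0% of all genes. In WT cells the medians were -0.35 and -0.20, and 20 and 4 fell, against 11.7%. For KO minus WT at day 4 they were -0.49 and -0.36, and 24 and 6 were lower, against 12.4%. Differences between members with and without a match were not tested.

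**Figure D1:**
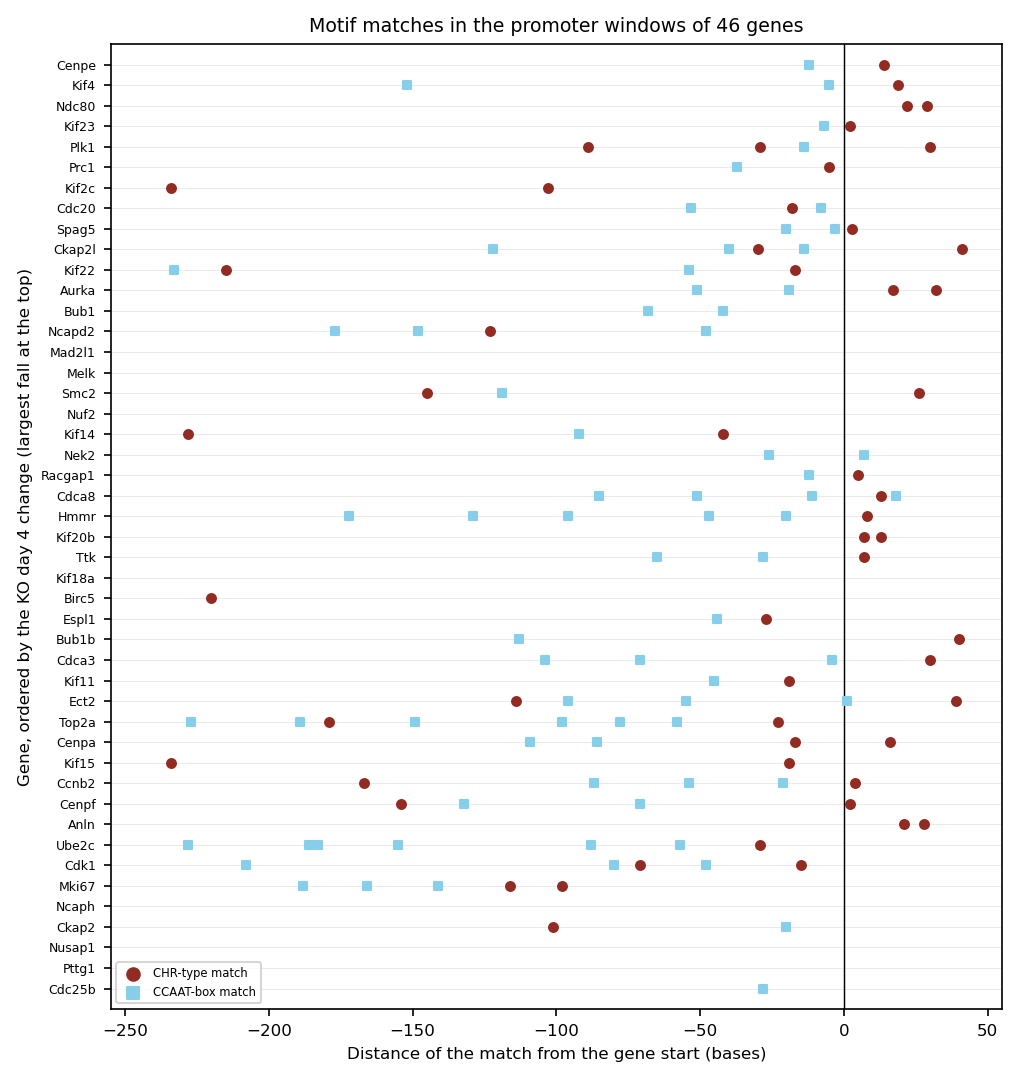
Positions of CHR-type (circles) and CCAAT-box (squares) matches in the promoter windows of 46 members. Distances run in bases from the annotated start used for the window to the match's first base. Genes are ordered by their change in KO cells at day 4, with the largest fall at the top. CHR-type matches gather near the start, and the bottom gene, Cdc25b, has none in its window, which lies past its listed gene start.

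Array medians over all tested genes lay between 5.23 and 5.32, and no member's mean level was under the 25th percentile of genes. Fibroblast markers, such as Col1a1 and Vim, had a mean level between 10.68 and 11.10 on every array. Gdap1 lay at the 14.1 percentile and did not differ past the threshold between genotypes (KO minus WT at day 0 was -0.08 ± 0.12, SE, adjusted p = 0.831), so its probe set does not check the genotype. Klf4, a transduced factor, rose at day 4 by 2.94 ± 0.09 in WT and 3.28 ± 0.09 in KO cells (adjusted p = 9.05e-10 and 2.93e-10). The other transduced factors did not all rise: Myc fell by 1.02 in WT and 0.94 in KO cells (adjusted p = 3.05e-06 and 4.92e-06), Sox2 did not pass (0.19 and -0.10), and Pou5f1, which encodes Oct4, was at 0.10 in WT cells (adjusted p = 0.515) and rose by 0.38 in KO cells (adjusted p = 0.00541). The 3 WT day 4 arrays stood apart from each other in the members: array 1 was the lowest of its group for 53 of 58 members, against 40.7% of all genes, and array 3 the highest for 54, against 35.3%. The median SD of a member within its group was 0.18 at WT day 4, and 0.07, 0.06 and 0.09 at WT day 0, KO day 0 and KO day 4. Results that rest on WT day 4 are therefore also given without single arrays.

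**Figure D2:**
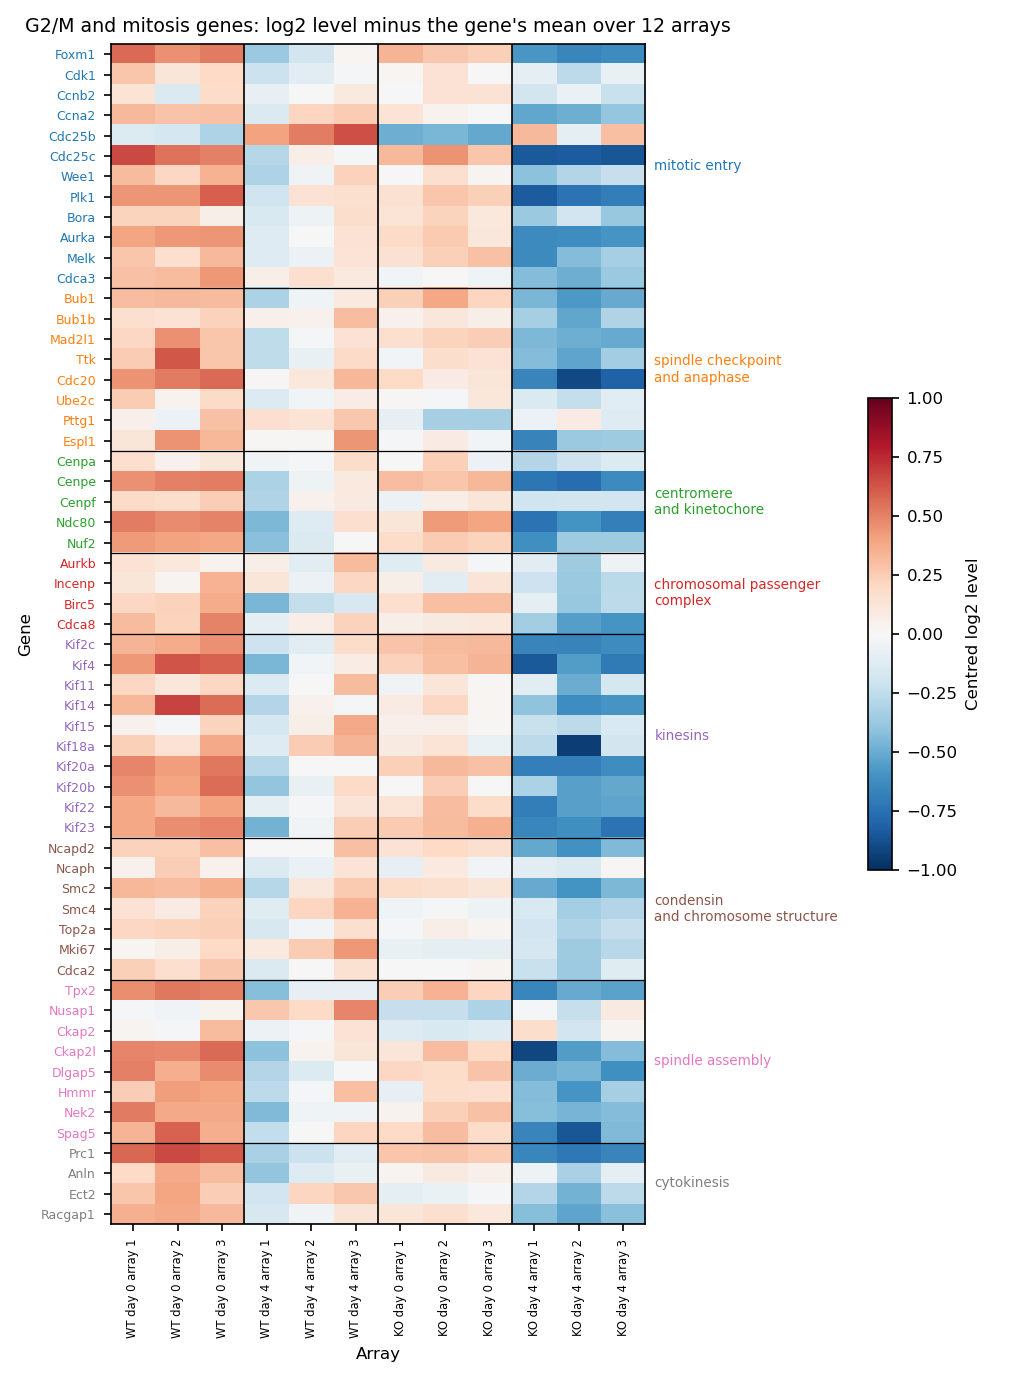
Log2 level of each of the 58 members on each of the 12 arrays, minus the gene's mean over the arrays, with genes grouped by role. Red is above and blue below the gene's mean, and colours saturate at 1; the KO day 4 columns are blue for most genes, and Cdc25b and Nusap1 are red at WT day 4.

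By day 4, 29 of 58 members fell in WT cells, by less than 2-fold each, 2 rose and 27 did not pass the threshold (limma, adjusted p under 0.05 over all genes), against 11.7% of all genes lower and 11.1% higher. The members' median change was -0.32 on the log2 scale, against -0.01 over all genes, and single changes ran from -0.83 for Prc1 to 0.73 for Cdc25b. No member passed with a fall of at least 2-fold, where 1.62% of all genes did. In KO cells the same step took 41 members down and 1 up, against 17.0% of all genes lower and 13.8% higher. Their median was -0.54, against -0.01, and Cdc25c (2.29-fold lower) and Cenpe (2.02-fold lower) passed with at least a 2-fold fall, as did 1.38% of all genes. In either direction 22.9% of all genes passed in WT and 30.8% in KO cells. The mean fell for 53 members in WT and 54 in KO cells (51.7% and 51.6% of all genes). The arrays of the days did not overlap for 35 lower and 2 higher members in WT cells (19.0% and 17.4% of all genes) and for 52 lower and 1 higher in KO cells (24.8% and 20.5%). The WT and KO changes come from different arrays, but their calls share 1 estimate of the spread over all 12 arrays and so are not independent. Of the members, 27 fell in both, and 14 passed as lower in KO and not in WT cells. Cdk1 and Anln passed as lower in WT and not in KO cells. Passing in only 1 genotype does not by itself show a difference, which is tested further below. Transduction, time in culture and reprogramming cannot be told apart in either comparison. Without WT day 4 array 1 the WT median was -0.22 with 26 members past the threshold, and without array 3 it was -0.42 with 38.

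**Figure D3:**
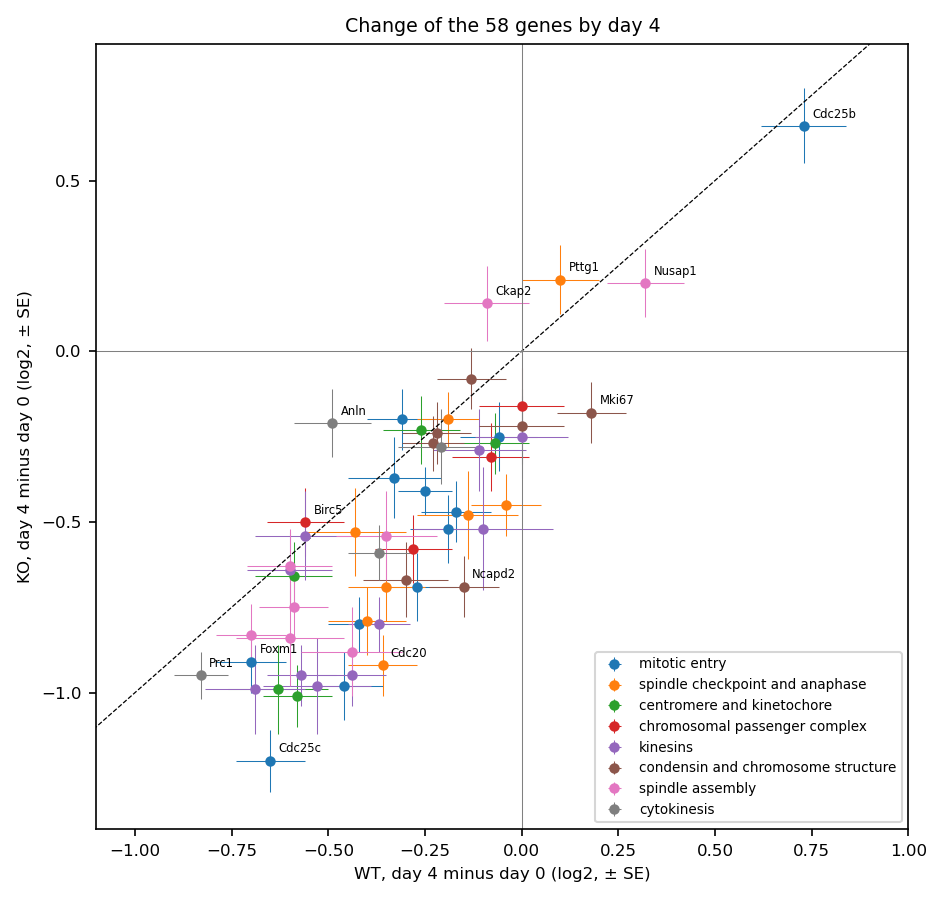
Change of each member by day 4 in WT cells (horizontal) and KO cells (vertical), in log2 units with SE, coloured by role; the dashed line marks equal changes. Most points lie below 0 on both axes and below the line, and Cdc25b stands alone at the upper right (0.73 and 0.66).

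The genotypes were then compared on each day, to ask whether cells without Gdap1 start from or reach another level. At day 0 the KO mean was below the WT mean for 57 of 58 members (51.3% of all genes), by a median of -0.20. The 3 arrays of each genotype did not overlap for 44 members, all lower in KO cells, where 16.4% of all genes showed that and 13.1% the opposite. The differences were small, however, and 3 members passed the threshold, Cdca3, Prc1 and Cdc20. This compares with 3.13% of all genes lower and 5.61% either way. The model shares 1 estimate of the spread over all 4 groups. A member's median SD was 0.18 at WT day 4, against 0.07 and 0.06 at WT and KO day 0. In a fit to the day 0 arrays alone 12 members passed. With all groups in the model, the count was 1 without WT day 0 array 2 or 3 or any KO day 0 array. It was 8 without WT day 4 array 1, and 16 with array weights. No member was higher (0, also at an unadjusted p under 0.05 in limma, where 25 were lower), against 2.48% of all genes, and 0 passed with at least a 2-fold fall (0.578% of all genes). At day 4, 39 members were lower in KO cells, against 12.4% of all genes lower and 20.7% either way, by a median of -0.44 over the members. The KO mean was the lower for 56 members (49.6% of all genes), and the arrays did not overlap for 42, all lower (17.3% of all genes lower, 14.3% higher). None of the 58 was higher (0, also at an unadjusted p under 0.05 in limma, where 50 were lower), against 8.34% of all genes, and 0 passed with a 2-fold fall (0.591%). The most negative differences were those of Cdc20 (-0.94), Plk1 (-0.79) and Cdc25c (-0.77). This comparison shares its arrays with the day 4 changes above. In a fit to the WT and KO day 4 arrays alone 18 members passed, and without WT day 4 array 3 the count was 27.

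**Figure D4:**
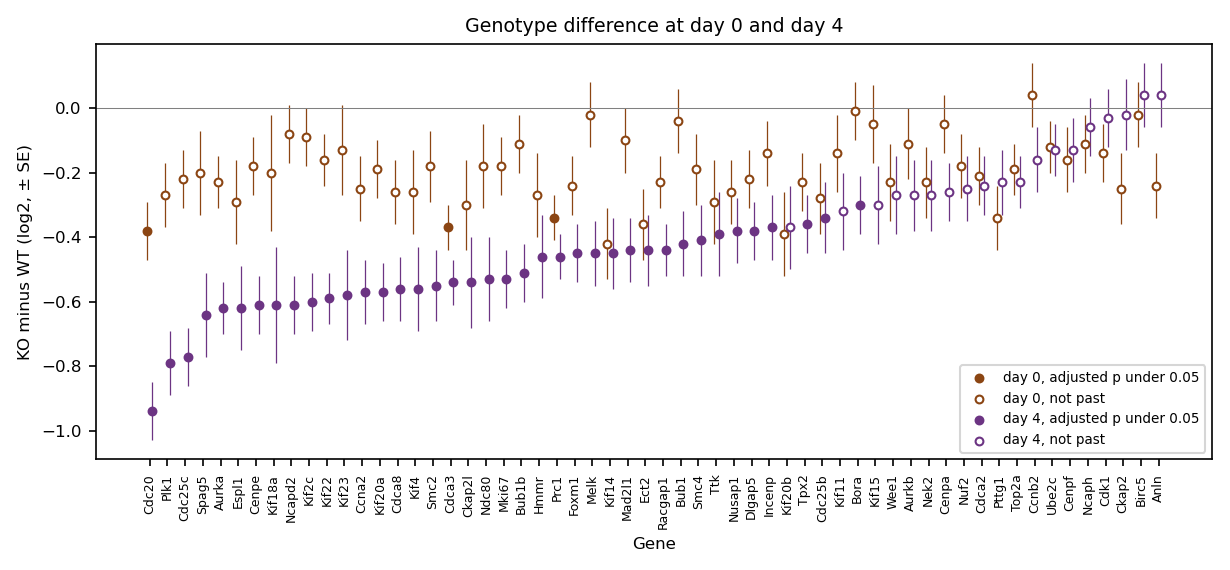
KO minus WT for each member at day 0 (brown) and day 4 (purple), in log2 units with SE; filled points passed the threshold. Genes are ordered by the day 4 difference, from Cdc20 (-0.94) to Anln and Birc5 (0.04 each), and all but Ccnb2 lie below 0 at day 0.

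Averaged over the 58 members, each centred on its mean over the arrays, the level was 0.29, 0.29 and 0.34 at WT day 0 and 0.07, 0.15 and 0.10 at KO day 0. At day 4 it was -0.18, 0.01 and 0.17 in WT arrays 1 to 3 and -0.40, -0.46 and -0.37 in KO arrays. The KO day 4 arrays were thus the lowest of all and did not overlap with any other group, while WT day 4 array 3 lay above the KO day 0 arrays and array 1 below them. The lowest of the 4 group means was that of KO day 4 for 52 of 58 members (31.4% of all genes) and the highest that of WT day 0 for 52 (25.2%). The order WT day 0, KO day 0, WT day 4, KO day 4, from high to low, was seen in 38 members. How often it occurs over all genes was not counted. Its middle neighbours overlapped, since the WT day 4 arrays spread on both sides of the KO day 0 arrays. Interferon response genes differed between the same arrays: their centred mean was between -1.62 and -1.57 at WT day 0, 0.94, -0.42 and -0.98 in WT day 4 arrays 1 to 3, 0.90 to 0.95 at KO day 0 and 0.49 to 1.34 at KO day 4. At day 0, 12 of 15 measured interferon genes were higher in KO cells and 0 lower (2.48% and 3.13% of all genes). At day 4, 5 were higher (8.34% of all genes). Macrophage and blood markers were lower in KO cells for 10 of 13 genes on each day (3.13% of all genes at day 0 and 12.4% at day 4). Their mean level per array was 6.31 to 6.38 at WT day 0, 6.15 to 6.78 at WT day 4, 4.98 to 5.12 at KO day 0 and 5.02 to 5.10 at KO day 4. Ptprc lay under the 25th percentile level of all genes in KO cells and Cd3e in all groups, and C1qb differed most (-3.12 at day 0). The part of these genes in the members' differences was not tested.

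**Figure D5:**
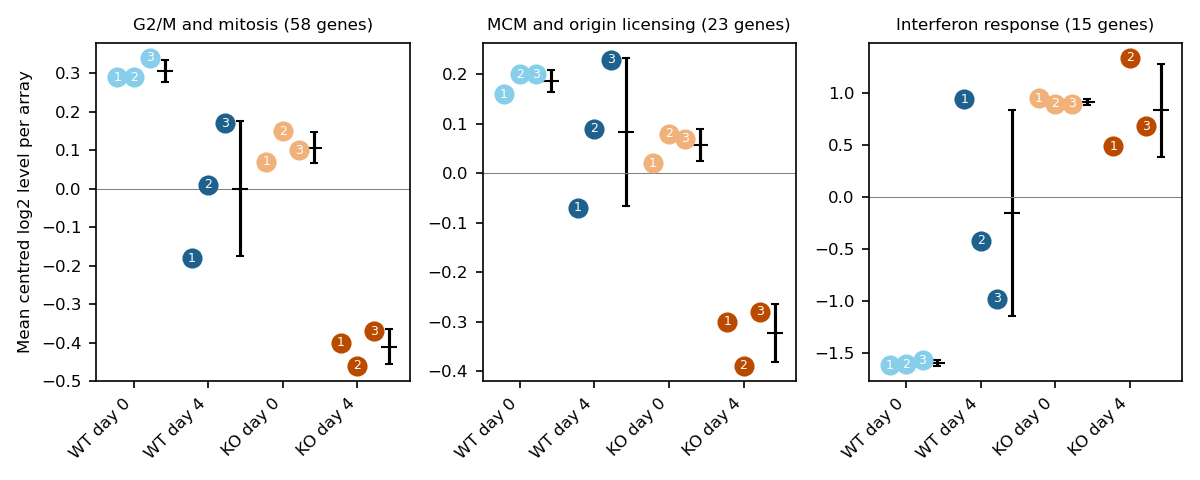
Mean centred log2 level per array (numbered points) of the 58 members, of 23 MCM helicase and origin licensing genes and of 15 interferon response genes, with the group mean and SD (n = 3) as bars. The KO day 4 arrays are lowest in the first 2 panels, and WT day 4 array 1 is low for the members (-0.18) and high for interferon genes (0.94).

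Of the 12 regulators of mitotic entry, 6 fell and 1 rose in WT cells, and 9 fell and 1 rose in KO cells, with medians of -0.29 and -0.49. Counts by role stand against 11.7% of all genes lower and 11.1% higher in WT cells, and 17.0% and 13.8% in KO cells. Cdc25c encodes a phosphatase that activates CDK1. Cdc25c gave log2 levels of 7.07, 6.96 and 6.92 for WT cells at day 0, 6.13, 6.48 and 6.40 at WT day 4, 6.74, 6.86 and 6.69 at KO day 0 and 5.57, 5.58 and 5.56 at KO day 4. All KO day 4 arrays lay below every other array, and the WT day 4 arrays lay below both day 0 groups. The change was -0.65 ± 0.09 in WT cells (SE, n = 3 per group, adjusted p = 0.000247) and -1.20 ± 0.09 in KO cells (adjusted p = 1.89e-06). For Plk1 the log2 levels were 9.73, 9.73 and 9.89 at WT day 0, 9.09, 9.43 and 9.45 at WT day 4, 9.44, 9.57 and 9.53 at KO day 0 and 8.46, 8.55 and 8.60 at KO day 4. Plk1, the polo-like kinase that triggers entry and later steps of mitosis, thus changed by -0.46 ± 0.10 in WT (adjusted p = 0.00465) and by -0.98 ± 0.10 in KO cells (adjusted p = 1.49e-05), and its WT day 4 arrays overlapped with KO day 0. Aurka, the Aurora A kinase that activates PLK1, showed the same order of group means as Cdc25c. The arrays read Aurka at log2 levels of 8.58, 8.62 and 8.63 (WT day 0), 8.06, 8.19 and 8.33 (WT day 4), 8.38, 8.45 and 8.30 (KO day 0) and 7.55, 7.57 and 7.60 (KO day 4). The genotypes did not overlap on either day, and KO minus WT at day 4 was -0.62 ± 0.08 (adjusted p = 0.000302).

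Cdca3, a factor that helps to degrade WEE1 at mitotic entry, was among the members lower in KO cells on both days. For Cdca3 the log2 levels were 7.46, 7.48 and 7.60 at WT day 0, 7.22, 7.33 and 7.26 at WT day 4, 7.14, 7.17 and 7.12 at KO day 0 and 6.73, 6.68 and 6.79 at KO day 4. No KO array overlapped with a WT array of the same day, and the differences were -0.37 ± 0.07 at day 0 (SE, n = 3 per group, adjusted p = 0.00738) and -0.54 ± 0.07 at day 4 (adjusted p = 0.00036). Cdc25b, a phosphatase of the same family as Cdc25c that acts earlier, went the other way. The arrays read Cdc25b at log2 levels of 7.50, 7.46 and 7.33 (WT day 0), 8.04, 8.15 and 8.28 (WT day 4), 7.15, 7.18 and 7.13 (KO day 0) and 7.96, 7.54 and 7.94 (KO day 4). Both day 4 groups lay above their day 0 groups, with rises of 0.73 ± 0.11 (adjusted p = 0.000351) and 0.66 ± 0.11 (adjusted p = 0.000527). At day 4 it was lower in KO cells (-0.34 ± 0.11, adjusted p = 0.0423), a call that 12 of the alternatives lost. Foxm1, the transcription factor of G2/M genes, fell by 0.70 ± 0.09 and 0.91 ± 0.09. The kinase gene Melk (-0.69), the cyclin A2 gene Ccna2 (-0.52), the PLK1 activator gene Bora (-0.47) and Wee1 (-0.37) fell in KO cells, and 4 alternatives lost the Wee1 call. The WT changes of these genes (-0.27, -0.19, -0.17 and -0.33 in that order) did not pass. The difference of the 2 changes passed for none of them, and for Wee1 it was -0.04 ± 0.17 (adjusted p = 0.932). Cdk1 fell in WT cells (-0.31, lost under 4 alternatives) and was at -0.20 in KO cells (adjusted p = 0.0961). Ccnb2, cyclin B2, passed in neither (-0.06 and -0.25).

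The spindle checkpoint holds anaphase back until chromosomes are attached, and 4 of its 8 genes with those of anaphase fell in WT and 6 in KO cells. Cdc20, the activator of the anaphase promoting complex, was lower in KO cells on both days. Cdc20 gave log2 levels of 9.62, 9.69 and 9.74 for WT cells at day 0, 9.18, 9.28 and 9.50 at WT day 4, 9.37, 9.25 and 9.29 at KO day 0 and 8.51, 8.27 and 8.36 at KO day 4. The groups did not overlap on either day, with KO minus WT at -0.38 ± 0.09 at day 0 (SE, n = 3 per group, adjusted p = 0.0323) and -0.94 ± 0.09 at day 4 (adjusted p = 7.03e-05). The day 0 call was lost without any 1 of the 6 day 0 arrays. Bub1, a checkpoint kinase, had overlapping genotypes at day 0 and separate ones at day 4. For Bub1 the log2 levels were 8.47, 8.49 and 8.48 at WT day 0, 7.85, 8.12 and 8.26 at WT day 4, 8.40, 8.55 and 8.38 at KO day 0 and 7.71, 7.59 and 7.66 at KO day 4. Its changes were -0.40 ± 0.10 (adjusted p = 0.00939) in WT and -0.79 ± 0.10 (adjusted p = 6.13e-05) in KO cells. Mad2l1, which binds CDC20 in the checkpoint, fell by 0.35 and 0.69, and the checkpoint kinase Ttk by 0.43 and 0.53; 4 and 5 alternatives lost these WT calls. Bub1b (BUBR1, -0.45) and Espl1 (separase, which cleaves cohesin, -0.48) fell in KO cells, with WT changes of -0.04 and -0.14 that did not pass. Ube2c, the ubiquitin-conjugating enzyme of the complex (-0.19 and -0.20), and Pttg1, securin (0.10 and 0.21), passed in neither.

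Kinetochores join chromosomes to microtubules, and of the 5 centromere and kinetochore members 3 fell in WT and 4 in KO cells. Cenpe is a kinesin of the kinetochore. The arrays read Cenpe at log2 levels of 8.21, 8.25 and 8.26 (WT day 0), 7.43, 7.70 and 7.85 (WT day 4), 8.06, 8.03 and 8.08 (KO day 0) and 7.03, 6.99 and 7.11 (KO day 4). The change was -0.58 ± 0.09 in WT (SE, n = 3 per group, adjusted p = 0.000609) and -1.01 ± 0.09 in KO cells (adjusted p = 7.84e-06), with KO day 4 below all other arrays. Ndc80, the microtubule-binding subunit of the outer kinetochore, was similar. Ndc80 gave log2 levels of 8.25, 8.21 and 8.23 for WT cells at day 0, 7.29, 7.61 and 7.90 at WT day 4, 7.86, 8.16 and 8.13 at KO day 0 and 7.00, 7.14 and 7.05 at KO day 4. The change was -0.63 ± 0.13 in WT (adjusted p = 0.00319) and -0.99 ± 0.13 in KO cells (adjusted p = 9.25e-05), and the WT day 4 arrays spread more widely than those of the other groups. Nuf2, its partner, fell by 0.59 and 0.66. Cenpa, the centromeric histone, was at -0.07 in WT and fell by 0.27 in KO cells, a call that 14 alternatives lost, and Cenpf passed in neither (-0.26 and -0.23). The chromosomal passenger complex corrects attachments and guides cytokinesis: 1 of its 4 genes fell in WT and 3 in KO cells. Of all genes 11.7% and 17.0% fell, so with 4 genes a count of 1 is near that background. For Birc5 the log2 levels were 7.19, 7.21 and 7.35 at WT day 0, 6.52, 6.74 and 6.82 at WT day 4, 7.15, 7.28 and 7.28 at KO day 0 and 6.89, 6.60 and 6.72 at KO day 4. Birc5, survivin, fell in both genotypes (-0.56 ± 0.10 and -0.50 ± 0.10), and WT and KO arrays overlapped on both days. The arrays read Cdca8 at log2 levels of 6.95, 6.85 and 7.13 (WT day 0), 6.53, 6.70 and 6.86 (WT day 4), 6.69, 6.72 and 6.74 (KO day 0) and 6.28, 6.08 and 6.04 (KO day 4). Cdca8, borealin, was lowest in the KO day 4 arrays and fell in KO cells (-0.58 ± 0.10, adjusted p = 0.00088), and its WT change (-0.28) did not pass. Incenp, the scaffold, fell in KO cells (-0.31), a call that 8 of 21 alternatives lost (adjusted p up to 0.134), and its kinase Aurkb passed in neither (-0.00 and -0.16).

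Kinesins move along microtubules or shape them, and 7 of the 10 fell in WT and 8 in KO cells, with medians of -0.49 and -0.72. Kif4 is a chromosome-bound motor that acts in chromosome condensation and at the midzone. Kif4 gave log2 levels of 6.98, 7.18 and 7.14 for WT cells at day 0, 6.09, 6.52 and 6.62 at WT day 4, 6.78, 6.85 and 6.89 at KO day 0 and 5.71, 5.99 and 5.84 at KO day 4. For Kif23 the log2 levels were 8.50, 8.58 and 8.60 at WT day 0, 7.64, 8.08 and 8.36 at WT day 4, 8.38, 8.43 and 8.47 at KO day 0 and 7.46, 7.50 and 7.38 at KO day 4. Kif23 belongs to centralspindlin, which organises the midzone for cytokinesis. In both genes the KO day 4 arrays lay below all others, and WT day 4 array 1 was the lowest of its group. Kif4 changed by -0.69 ± 0.13 in WT and -0.99 ± 0.13 in KO cells, and Kif23 by -0.53 ± 0.14 and -0.98 ± 0.14 (SE, n = 3 per group). Kif2c, a microtubule depolymeriser at centromeres, differed little between genotypes at day 0 (KO minus WT -0.09 ± 0.09, adjusted p = 0.724). The arrays read Kif2c at log2 levels of 8.19, 8.22 and 8.30 (WT day 0), 7.64, 7.73 and 8.03 (WT day 4), 8.13, 8.16 and 8.17 (KO day 0) and 7.19, 7.18 and 7.22 (KO day 4). The genotypes did not overlap on either day, and the difference at day 4 was larger than at day 0 (-0.60 ± 0.09, adjusted p = 0.000834). Kif22, a chromokinesin, was also lowest at KO day 4. Kif22 gave log2 levels of 7.87, 7.81 and 7.89 for WT cells at day 0, 7.39, 7.47 and 7.61 at WT day 4, 7.62, 7.79 and 7.67 at KO day 0 and 6.79, 6.94 and 6.96 at KO day 4. For Kif20a the log2 levels were 9.25, 9.18 and 9.29 at WT day 0, 8.48, 8.77 and 8.76 at WT day 4, 9.00, 9.09 and 9.06 at KO day 0 and 8.08, 8.08 and 8.14 at KO day 4. Kif20a, which acts in cytokinesis, was also lower in KO cells at day 4 (-0.57 ± 0.09, adjusted p = 0.00072), as was Kif22 (-0.59 ± 0.08, adjusted p = 0.000476). Kif14 (-0.60 and -0.64) and Kif20b (-0.56 and -0.54) fell in both genotypes, and Kif18a fell in KO cells (-0.52; WT -0.10), a call that 9 of 21 alternatives lost (adjusted p up to 0.15). Kif11, the motor that separates spindle poles, and Kif15 passed in neither, with changes between -0.29 and 0.00.

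Condensin compacts chromosomes, and this group of 7 genes had the smallest median changes of the 8 roles, -0.15 in WT and -0.24 in KO cells. None passed in WT (0) and 3 fell in KO cells. Ncapd2 is a condensin I subunit. The arrays read Ncapd2 at log2 levels of 8.99, 8.99 and 9.06 (WT day 0), 8.76, 8.76 and 9.06 (WT day 4), 8.91, 8.96 and 8.92 (KO day 0) and 8.25, 8.16 and 8.32 (KO day 4). The WT arrays of both days overlapped, and the KO day 4 arrays lay below all others, with changes of -0.15 ± 0.09 (SE, n = 3 per group, adjusted p = 0.28) and -0.69 ± 0.09 (adjusted p = 8.52e-05). Smc2 gave log2 levels of 8.10, 8.08 and 8.12 for WT cells at day 0, 7.48, 7.88 and 8.03 at WT day 4, 7.95, 7.93 and 7.89 at KO day 0 and 7.26, 7.17 and 7.32 at KO day 4. Smc2, a core ATPase of condensin, had its KO day 4 arrays below all others and changed by -0.30 ± 0.11 (adjusted p = 0.0751) in WT and -0.67 ± 0.11 (adjusted p = 0.000578) in KO cells. Top2a, the topoisomerase that untangles sister chromatids, fell in KO cells by 0.27, a call that 5 alternatives lost, and its WT change was -0.23. Mki67, the proliferation marker Ki-67 that coats mitotic chromosomes, passed in neither genotype over time (0.18 and -0.18), but was lower in KO than in WT cells at day 4 (-0.53 ± 0.09, adjusted p = 0.00197). Smc4 was likewise lower at day 4 (-0.41, lost under 4 alternatives). Ncaph and Cdca2 passed in no comparison.

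Among 8 spindle assembly genes, 5 fell and 1 rose in WT cells, and 6 fell in KO cells. Spag5, astrin, is a spindle and kinetochore protein. For Spag5 the log2 levels were 7.57, 7.82 and 7.59 at WT day 0, 6.98, 7.23 and 7.44 at WT day 4, 7.43, 7.54 and 7.41 at KO day 0 and 6.57, 6.37 and 6.79 at KO day 4. The arrays read Ckap2l at log2 levels of 6.71, 6.70 and 6.79 (WT day 0), 5.81, 6.26 and 6.34 (WT day 4), 6.34, 6.53 and 6.42 (KO day 0) and 5.31, 5.66 and 5.79 (KO day 4). Ckap2l, a spindle microtubule protein, and Spag5 were lowest at KO day 4 without overlap; Spag5 changed by -0.44 ± 0.13 and -0.88 ± 0.13, and Ckap2l by -0.60 ± 0.14 and -0.84 ± 0.14 (SE, n = 3 per group). Tpx2, which activates Aurora A on the spindle, fell by 0.70 and 0.83. Dlgap5 fell by 0.59 and 0.75, the centrosomal kinase Nek2 by 0.60 and 0.63, and Hmmr in KO cells by 0.54. Nusap1, which binds and bundles spindle microtubules, rose in WT cells. Nusap1 gave log2 levels of 8.56, 8.54 and 8.61 for WT cells at day 0, 8.84, 8.77 and 9.06 at WT day 4, 8.34, 8.34 and 8.26 at KO day 0 and 8.55, 8.34 and 8.66 at KO day 4. Its WT day 4 arrays lay above all day 0 arrays (0.32 ± 0.10, adjusted p = 0.0293), while its KO arrays met at 8.34 between days (0.20 ± 0.10). The WT call was lost under 6 alternatives, centring on array medians among them, and a probe set that the annotation gives to both Oip5 and Nusap1 was not used. Ckap2 passed in no comparison.

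Of the 4 cytokinesis genes, 3 fell in WT and 2 in KO cells. Prc1 bundles the antiparallel microtubules of the midzone and was the member with the largest WT fall. For Prc1 the log2 levels were 9.41, 9.49 and 9.45 at WT day 0, 8.51, 8.62 and 8.73 at WT day 4, 9.11, 9.12 and 9.09 at KO day 0 and 8.18, 8.12 and 8.17 at KO day 4. Its 4 groups did not overlap at all, in the order WT day 0, KO day 0, WT day 4 and KO day 4. The change was -0.83 ± 0.07 in WT (SE, n = 3 per group, adjusted p = 5.9e-06) and -0.95 ± 0.07 in KO cells (adjusted p = 1.81e-06), and KO minus WT at day 0 was -0.34 ± 0.07 (adjusted p = 0.014), a call lost without any 1 of 5 of the 6 day 0 arrays (adjusted p up to 0.0641). The arrays read Racgap1 at log2 levels of 9.31, 9.34 and 9.28 (WT day 0), 8.80, 8.92 and 9.09 (WT day 4), 9.08, 9.12 and 9.06 (KO day 0) and 8.53, 8.43 and 8.54 (KO day 4). Racgap1, the partner of KIF23 in centralspindlin, changed by -0.37 ± 0.08 and -0.59 ± 0.08, with KO day 4 below all other arrays. Anln, anillin of the contractile ring, fell in WT cells (-0.49, adjusted p = 0.00298) and was at -0.21 in KO cells. Ect2, the exchange factor that activates RhoA there, passed in neither over time, but was lower in KO cells at day 4 (-0.44, adjusted p = 0.0148), a call that 4 alternatives lost.

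Whether the fall differed between genotypes was tested as the difference of the 2 changes, KO minus WT. It was below 0 for 50 of 58 members (51.1% of all genes), with a median of -0.21, and 4 passed as a larger fall in KO cells, against 1.82% of all genes lower, 2.15% higher and 3.97% either way. None passed with a 2-fold difference (0, against 0.253% of all genes). The 4 were Cdc20 (-0.56 ± 0.13, SE, n = 3 per group, adjusted p = 0.0361), Cdc25c (-0.55 ± 0.13, adjusted p = 0.0365), Ncapd2 (-0.54 ± 0.13, adjusted p = 0.0349) and Kif2c (-0.51 ± 0.13, adjusted p = 0.0474). No member passed the other way (0, also at an unadjusted p under 0.05, where 19 were below 0). The other 54 members, among them Plk1 (-0.52, adjusted p = 0.0593), were not shown to differ. This holds also for those of the 54 that passed over time in only 1 genotype, such as Melk and Wee1. The count rested on single arrays: it was 19 without WT day 4 array 1 and 1 without WT day 4 array 2 or KO day 4 array 1 or 3. It was 0 without any 1 of the 3 WT day 0 arrays, the 3 KO day 0 arrays, WT day 4 array 3 or KO day 4 array 2, with 12 to 17 members at an unadjusted p under 0.05.

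Of 28 measured kinetochore and centromere genes outside the members, 18 fell in WT and 21 in KO cells, with medians of -0.34 and -0.52 and none higher. Beside this list and those that follow, 11.7% of all genes fell and 11.1% rose in WT cells, and 17.0% and 13.8% in KO cells. Cenpt, which links the centromere to the outer kinetochore, fell by 0.60 and 1.31, and Pmf1, of the MIS12 complex, fell by 1.16 in KO cells and was lower in KO than in WT cells at day 4 by 1.20 (adjusted p = 3.77e-05). Of 36 other spindle and cytokinesis genes, 17 fell and 1 rose in WT and 23 fell in KO cells; Gtse1 fell by 0.83 and 0.99, and Hmgb2, a chromatin protein, rose in WT cells by 0.52. Anaphase promoting complex subunits had 4 of 15 lower in WT and 11 in KO cells, among them Ube2s (-0.65) and Anapc5 (-0.64) in KO cells. Of 12 cohesin genes, 3 rose and 0 fell in WT cells (Stag2, Mau2 and Pds5b), and in KO cells Stag2 rose (0.36) and Cdca5, sororin, fell (-0.49). At day 4, 5 of the 12 were lower in KO than in WT cells (41.7%, against 12.4% of all genes), Cdca5 by 0.66 among them.

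Among 14 regulators of G2/M transcription, 2 fell and 1 rose in WT cells, near the 11.7% and 11.1% of all genes, and 8 fell in KO cells, against 17.0%. Mybl2, B-MYB, was at -0.18 ± 0.11 in WT cells (SE, n = 3 per group, adjusted p = 0.293) and fell in KO cells (-0.53 ± 0.11, adjusted p = 0.00227). Lin54, the MuvB subunit that contacts the CHR, fell by 0.29 and 0.62, and Lin9 by 0.74 in KO cells. Rbl2, the pocket protein p130 that joins MuvB in quiescent cells, rose in WT cells by 0.30. For comparison, MCM helicase and origin licensing genes, which act before and during S phase, had 6 of 23 lower and 2 higher in WT cells. In KO cells 14 were lower and 1 higher, and the medians were -0.11 and -0.38. At day 4, 14 of the 23 were lower in KO than in WT cells (60.9%, median -0.39). This compares with 39 of the 58 members (67.2%, -0.44) and 12.4% of all genes. The lower KO level at day 4 was thus not confined to the members. The difference of changes passed as a larger fall in KO cells for 3 of the 23 (13.0%). It did so for 4 of the 58 members (6.9%) and 1.82% of all genes. Among 10 CDK inhibitors and D cyclins, 3 rose and 2 fell in WT cells, and 4 rose and 2 fell in KO cells. Cdkn1c (p57) rose by 1.74 in WT and 1.57 in KO cells, Ccnd1 by 0.82 and 0.87 and Cdkn1b (p27) by 0.34 and 0.67. Cdkn2b fell by 0.72 and 0.63, and Cdkn1a (p21) passed in neither (-0.01 and -0.11). Between genotypes, 1 of the 10 was lower in KO cells at day 0, against 3.13% of all genes. At day 4, 3 were higher and 2 lower, against 8.34% and 12.4% of all genes. With a list this short, counts of 1 or 2 are near that background. Cdkn1c was lower in KO cells on both days (-0.57 and -0.74). Differences between these lists and the members were not tested.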

How the data were processed

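The authors deposited log2 probe-set levels, 1 column per array, which per the submitters' processing notes came from Affymetrix Expression Console; the sources used here do not give its version, background correction or normalization. Arrays give no depth, and their number limits the precision. Platform annotation gave 1 symbol to 23521 of 41345 probe sets, several to 1814 and none to 16010. Symbols were updated through RefSeq (GRCm38.p6), and the probe set with the highest mean over 12 arrays stood for a gene. No low-level filter was used, and 0 columns belonged to other samples. A limma 3.58.1 model (R 4.3.3) with 4 group means and no covariate gave 5 contrasts, with 8 residual and 4.56 prior degrees of freedom. Tests were 2-sided, with Benjamini-Hochberg adjustment over 22151 genes. The model was tested on simulated data with 1 SD per gene for all 4 groups. That test does not cover unequal spreads such as the wider one at WT day 4. A gene passed at an adjusted p under 0.05. Members, roles, lists and the rule for genes given by array (the 2 largest KO changes per role, all members that rose, and up to 10 by p in the genotype comparisons) were chosen with earlier results of these data known. Marker lists for endothelial, epithelial, skeletal muscle and neural cells were also read.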

Additional observations from a re-analysis of the deposited data

Results flagged for a closer look

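For 4 members the day 4 change differed between the genotypes by the test of the difference itself, with a larger fall in KO cells. The difference, KO minus WT, was -0.56 for Cdc20, -0.55 for Cdc25c, -0.54 for Ncapd2 and -0.51 for Kif2c. Over 20 alternatives each, the call was lost under 11 for Cdc20 (adjusted p between 0.01 and 0.0973), 12 for Cdc25c (0.00376 to 0.095), 9 for Ncapd2 (0.0125 to 0.0888) and 12 for Kif2c (0.0104 to 0.114). Each difference stayed below 0 in all of them. The alternatives reuse the arrays these members were picked from, so the kept sign is no separate support.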

How the results depend on the processing

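All 5 median changes kept their sign under every alternative run, from -0.42 to -0.22 for WT cells, -0.60 to -0.49 for KO cells, -0.22 to -0.18 and -0.53 to -0.34 for KO against WT at day 0 and day 4, and -0.29 to -0.14 for the difference of changes. Of the calls on single members, 23 of 31 (WT), 36 of 42 (KO), 1 of 3 and 18 of 39 (KO against WT at day 0 and day 4) and 0 of 4 (difference) held in all alternatives, and no called value changed sign. All alternatives reuse the same arrays, so kept signs are no separate support. Leaving out 1 array gave 26 to 38, 38 to 46, 1 to 8, 27 to 49 and 0 to 19 members past the threshold. Asking for at least a 2-fold change left 0, 2, 0, 0 and 0. At day 0, KO against WT gave 5 members with a trended and robust prior, 16 with array weights, 12 when only the compared arrays were fitted and 9 when array 1 of WT day 4 and array 2 of KO day 4 were both left out; at day 4, 18 passed when only the compared arrays were fitted. The difference of changes gave 7 with the trended and robust prior, 12 with array weights and 15 without those 2 arrays. With the replicate number as a block, the counts were 34, 42, 3, 37 and 3. Deviations of same-numbered arrays correlated between -0.06 and 0.18, and those of differently numbered arrays between -0.20 and 0.12. The highest value, 0.18, was that of array 2 of the WT and KO day 4 groups. The labels do not say whether the numbers pair, so they were not taken as pairs. Filtering low levels gave 33, 43, 4, 39 and 6 members. Of 1526 list counts recomputed, 246 moved by over 1.5 times. The cause of these shifts was not tested. The 3 arrays per group limit what small differences can be shown.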

Other observations

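Of the cell type markers read beside the members, fibroblast markers had 6 of 11 lower and 2 higher in WT cells by day 4 and 5 lower and 1 higher in KO cells. Epithelial and keratinocyte markers had 4 of 7 higher in WT and 2 in KO cells, with 1 lower in each. Endothelial markers had 3 of 8 lower in each genotype and 1 higher in WT cells, skeletal muscle markers had 2 of 8 lower in each, and neural markers had 2 of 6 lower in WT and 1 lower and 2 higher in KO cells. Of all genes, 11.7% were lower and 11.1% higher in WT cells and 17.0% and 13.8% in KO cells, so with lists this short counts of 1 or 2 are near that background.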
